A study of Homo sapiens with 4 samples.

Results

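CEP95 and its chromosome 17 neighbours DDX5, SMURF2 and POLG2 were examined as 4 genes of the 63677 listed in the count table, found by their Ensembl gene identifiers in GENCODE v44. All 4 were among the 14645 genes that passed the count filter and were tested. They were named as a set of adjacent genes, with earlier results of these data known. The question was how much of each of these nuclear RNAs is recovered with ORC1, the subunit of the origin recognition complex that binds chromatin first, and whether recovery is shared by genes that lie side by side.

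The data are native RIP-seq libraries, in which RNA is recovered with a protein that is precipitated without crosslinking. Both groups were nuclear RNA of the human colorectal carcinoma line HCT116, which had carried a pcDNA3 plasmid for 48 h from which 3xFLAG-tagged ORC1 was produced. The IP group held 2 libraries of RNA precipitated with the FLAG antibody M2, and the Input group held the 2 matching libraries of nuclear RNA that was not precipitated. The tagged protein was produced from a plasmid in addition to the ORC1 of the cells, and no precipitation from cells without the plasmid or with a control antibody was analysed here. The labels number the replicates 1 and 2 without stating whether they were separate cultures, so p-values measure the spread between these libraries.

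The libraries held between 9213877 and 27483148 counts, with both IP libraries deeper than both Input libraries. All 6 epithelial markers (EPCAM, CDH1, KRT8, KRT18, KRT19 and CLDN4) were at 1 CPM or more in all 4 libraries, and of 7 markers of other cells only COL1A1 was. Summed over the list, the epithelial markers ranged from 4233 to 4585 CPM in IP and from 2417 to 2675 CPM in Input, and the markers of other cells from 21.85 to 26.97 CPM and from 7.90 to 10.95 CPM. The sum does not hold for every epithelial marker. CLDN4 was lower in IP, at 74.9 and 106 CPM against 104 and 149 in Input for replicates 1 and 2. The other epithelial markers were higher in IP in both replicates. CD3E, LYZ and PECAM1 were at 0. Within a library of bulk RNA, more cells with an RNA and more of it per cell cannot be told apart. IP and Input of a number are parts of the same RIP replicate, so their sums compare recovered RNA and do not count cells.

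The 4 proteins have unrelated roles. CEP95 is a centrosomal protein, DDX5 (p68) is a DEAD-box RNA helicase that takes part in transcription, splicing and microRNA processing, SMURF2 is a HECT ubiquitin ligase of the TGF-beta and SMAD pathway, and POLG2 is the accessory subunit of the polymerase that copies mitochondrial DNA. CEP95 and DDX5 are transcribed away from each other, an arrangement called head-to-head. Precipitation of an RNA with a protein in a native lysate can be direct or through other molecules of the same complex.

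On GRCh38, CEP95 (ENSG00000258890) spans chr17:64506865-64542461 on the plus strand. The other genes are on the minus strand, with DDX5 (ENSG00000108654) at chr17:64498254-64508199, POLG2 (ENSG00000256525) at chr17:64477785-64497054 and SMURF2 (ENSG00000108854) at chr17:64542282-64662307. Their order along the chromosome is POLG2, DDX5, CEP95, SMURF2. The start sites of the canonical transcripts of CEP95 and DDX5 are 688 bases apart. The end of canonical CEP95 and the end of SMURF2 face each other across 4335 bases, and the spans of DDX5 and POLG2 are 1199 bases apart. The canonical transcripts have 20 exons and 2754 bases for CEP95, 13 exons and 3684 bases for DDX5, 19 exons and 6240 bases for SMURF2, and 8 exons and 1582 bases for POLG2.

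The sequences just upstream of the facing start sites of CEP95 and DDX5 are shown because these are the adjacent genes of which both were enriched. Each is the 250 bases before the RefSeq start site (GRCh38.p14) that coincides with the canonical one, written 5′ to 3′ on the strand of the gene, at chr17:64506727-64506976 for CEP95 and chr17:64506290-64506539 for DDX5. Capitals mark the TATAAA box, the CCAAT box and the GC box GGGCGG on either strand.
CEP95 upstream: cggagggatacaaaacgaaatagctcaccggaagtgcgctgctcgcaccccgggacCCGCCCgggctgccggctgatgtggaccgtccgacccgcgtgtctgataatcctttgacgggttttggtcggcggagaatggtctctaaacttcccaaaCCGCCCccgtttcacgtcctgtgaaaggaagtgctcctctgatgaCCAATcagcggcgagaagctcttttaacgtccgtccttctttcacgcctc
DDX5 upstream: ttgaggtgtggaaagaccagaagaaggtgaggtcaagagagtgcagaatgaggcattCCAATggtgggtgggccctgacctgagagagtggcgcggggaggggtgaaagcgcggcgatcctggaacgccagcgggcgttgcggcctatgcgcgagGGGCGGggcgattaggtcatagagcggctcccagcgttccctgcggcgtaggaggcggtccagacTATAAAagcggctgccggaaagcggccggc
The CEP95 sequence holds no TATAAA, 1 CCAAT and 2 GGGCGG, the latter read on the opposite strand as CCGCCC. The DDX5 sequence holds 1 of each. RefSeq also has DDX5 start sites at chr17:64505937 and chr17:64506638. Their windows, not shown, hold no TATAAA and no CCAAT, with 1 and 2 GGGCGG. Of 35116 upstream sequences of this length in the RefSeq table, 10.7% hold TATAAA, 32.0% hold CCAAT and 42.6% hold GGGCGG on either strand. These letter matches are a description of the windows and not of bound factors.

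CEP95 RNA was 4.22-fold higher in IP than in Input. Its counts in replicates 1 and 2 were 4885 and 4384 in IP, and in Input 1083 and 615. Relative to library sizes corrected for composition (trimmed mean of M values, TMM), its level was 235 and 249 CPM in IP, against 62.0 and 52.6 in Input. The groups did not overlap, and CEP95 was higher in IP in both replicates. Replicates 1 and 2 gave log2 ratios of IP to Input of 1.91 and 2.23 (pseudocount of 0.5 CPM). The edgeR quasi-likelihood log2 fold change was 2.08 ± 0.24 (SE, 2 libraries per group) with a Benjamini-Hochberg adjusted p of 0.0105. Of all genes tested, 121 (0.826%) had a larger fold change. The level of CEP95 in Input was at the 76.7th percentile of tested genes.

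DDX5 RNA was 2.53-fold higher in IP. It had 35615 and 28477 counts in IP and 11497 and 7666 in Input, which is 1710 and 1620 CPM in IP against 658 and 656 in Input. Both IP libraries were above both Input libraries. The replicates gave log2 ratios of 1.38 and 1.30. By edgeR, DDX5 was at a log2 fold change of 1.34 ± 0.27 (SE) with an adjusted p of 0.0177. DDX5 was one of the most abundant RNAs of the nuclear Input, at the 99.3rd percentile, and 1008 genes (6.88%) had a larger fold change. With library sizes left without a composition factor, a setting that shifted the median gene by -0.60 on the log2 scale, DDX5 had a log2 fold change of 0.74 and was not called. Relative to the median of all genes it was at 1.33 in both cases, a value that a shift common to all genes leaves nearly unchanged.

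SMURF2 RNA was not called. It had 7638 and 6431 counts in IP and 4622 and 3331 in Input, which is 367 and 366 CPM in IP against 265 and 285 in Input. The IP libraries were above the Input libraries, by a log2 ratio of 0.47 in replicate 1 and 0.36 in replicate 2. A fold change of 0.41 ± 0.24 (log2, SE) by edgeR had an adjusted p of 0.243. With the replicate number as a block the adjusted p was 0.0467 at a log2 fold change of 0.42, below the minimum of 1 for a call. Relative to the median of all genes the SMURF2 value was 0.41 with TMM factors and with library sizes alone. The shift common to all genes leaves that value nearly unchanged, while the sign of SMURF2 itself turned to -0.19 with library sizes alone.

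POLG2 was the least abundant of the 4 RNAs and was not called. It had 312 and 420 counts in IP and 268 and 243 in Input. In CPM the IP values of 15.0 and 23.9 and the Input values of 15.3 and 20.8 overlapped. The log2 ratios of -0.03 and 0.20 had opposite signs in the replicates, and the edgeR log2 fold change was 0.11 ± 0.30 (SE), with an adjusted p of 0.829. Its sign turned under upper-quartile scaling (-0.06), with library sizes alone (-0.48), without IP replicate 2 (-0.21) and without Input replicate 1 (-0.05).

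**Figure D1:**
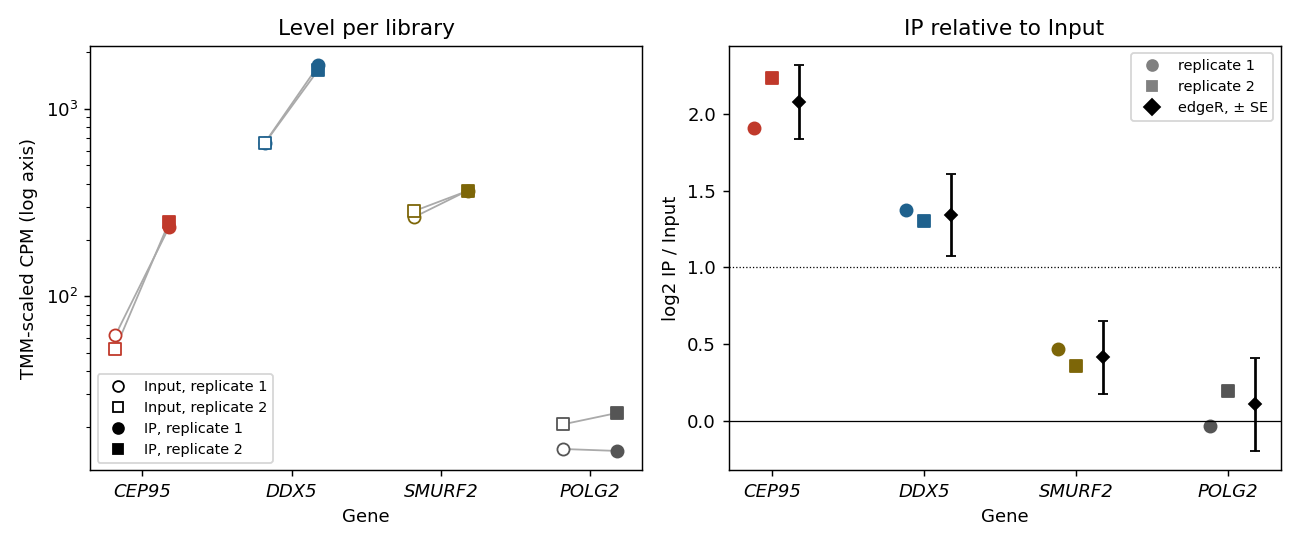
TMM-scaled CPM of the 4 genes in each library on a log axis (left; open symbols Input, filled symbols IP, lines join libraries of one replicate number) and log2 IP to Input ratios of replicates 1 and 2 with the edgeR log2 fold change ± SE (right; the dotted line is a log2 fold change of 1). CEP95, at 1.91 and 2.23, and DDX5, at 1.38 and 1.30, are above the dotted line in both replicates, and SMURF2 and POLG2 are below it.

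Of the 4 genes, 2 were thus called enriched, which required a log2 fold change above 1 and an adjusted p below 0.05, and none was called depleted, where 10.5% of all tested genes were enriched and 8.30% depleted. With the replicate block, edgeR called 1960 genes enriched and 1957 depleted in place of 1542 and 1215. With 4 genes these counts describe the locus and are not a test of it. CEP95 was called in each of 12 alternative fits, with log2 fold changes from 1.48 to 2.24, and DDX5 in 11 of them.

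Levels of different genes were compared per kb of canonical transcript. In Input the order was DDX5 (179 and 178 CPM per kb), SMURF2 (42.4 and 45.7), CEP95 (22.5 and 19.1) and POLG2 (9.70 and 13.1). In IP it was DDX5 (464 and 440 CPM per kb), CEP95 (85.2 and 90.6), SMURF2 (58.8 and 58.6) and POLG2 (9.47 and 15.1), so that CEP95 and SMURF2 exchanged places. No neighbouring values in either order overlapped between replicates. The exchange depended on the length used. Per kb of all annotated exons, which sum to 7771 bases in CEP95 and 7213 in SMURF2, CEP95 was at 30.2 and 32.1 CPM per kb in IP and SMURF2 at 50.9 and 50.7.

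The ratio of 2 genes within a library does not depend on the scaling. In replicates 1 and 2, DDX5 had 7.29 and 6.50 counts per CEP95 count in IP, against 10.6 and 12.5 in Input. For SMURF2 there were 1.56 and 1.47 counts per CEP95 count in IP and 4.27 and 5.42 in Input. CEP95 thus gained on both of its immediate neighbours in both replicates. The log2 IP to Input ratio of CEP95 exceeded that of DDX5 by 0.53 and 0.93, that of SMURF2 by 1.44 and 1.87, and that of POLG2 by 1.94 and 2.04. DDX5 exceeded SMURF2 by 0.91 and 0.94 and POLG2 by 1.41 and 1.11, and SMURF2 exceeded POLG2 by 0.50 and 0.16. In exact two-sided permutation tests of IP against Input libraries, 5 of the 6 pairs gave p = 0.333, the smallest that 2 against 2 libraries allow, and SMURF2 with POLG2 gave p = 0.667. Adjusted over the 6 pairs these were 0.400 and 0.667, so no difference could pass 0.05 in this exact test. The test did not use the pairing of IP and Input by replicate number.

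**Figure D2:**
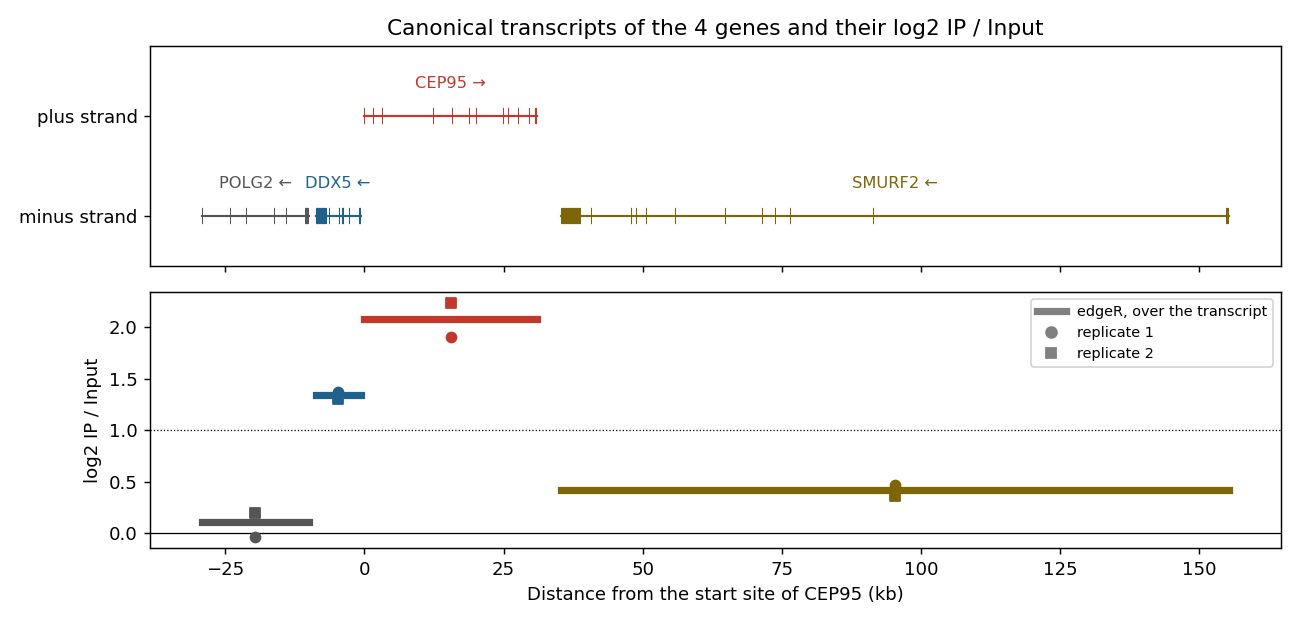
Exons of the canonical transcripts against the distance from the start site of CEP95 in kb (top; arrows give the direction of transcription) and their log2 IP to Input over the same axis (bottom; bars are the edgeR log2 fold change, symbols the replicates). The value is 2.08 for CEP95, 1.34 for DDX5 and 0.41 and 0.11 for the flanking SMURF2 and POLG2.

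Annotated exons of CEP95 share 252 bases with those of DDX5 on the opposite strand, which is 3.24% of the exonic bases of CEP95 and 2.71% of those of DDX5. They share 180 bases with those of SMURF2, or 2.32% and 2.50%. The canonical transcripts share no base. The kit marks the strand of the RNA, but whether the counting used it is not given in the sources used here, and reads over the shared bases could not be assigned from gene counts. Of 66 genes wholly inside exons of an expressed gene on the opposite strand, 58 (87.9%) were listed at 0 in all 4 libraries. For these 66, the counts per base of the host gene would give at least 500 counts over their length. Their counts of 0 cannot show the strand setting, because counting without strand can also leave reads over both genes unassigned. The processed pseudogene DDX5P1 was listed at 0 in all libraries and SMURF2P1 had between 3 and 8 counts, against at least 7666 for DDX5 and 3331 for SMURF2.

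Away from the locus, edgeR called none of the other tested genes within 500 kb of CEP95. The table lists 36 such genes, 11 of which were tested, with 0 enriched, 0 depleted, a median log2 fold change of -0.06 and 3 at an unadjusted p below 0.05. Over all tested genes the shares were 10.5% enriched and 8.30% depleted, and with so few genes a count of 0 is not set apart from them. Most of the 11 also had low counts, and some were beyond a log2 fold change of 1 with a large SE. SNORD104 (0.67 to 7.27 CPM) was at -1.56 ± 0.74 and LRRC37A3 (1.32 to 3.98 CPM) at 1.08 ± 0.49. The absence of calls therefore does not show that the neighbours were unchanged. DESeq2, which tested 26 genes of the window, called 0 with 2 at an unadjusted p below 0.05, and limma voom called 0 of 11 with 1. Over all 14645 tested genes, edgeR called 1960 enriched and 1957 depleted with the replicate block, and 3257 depleted with library size only. Within the window it called 2 enriched and 3 depleted with the block. It called no gene enriched but 2 depleted with library size only, without IP replicate 2 or without Input replicate 1, and 1 depleted without Input replicate 2 or with no count filter. Of the 4 protein-coding genes, ERN1, a sensor of unfolded proteins in the endoplasmic reticulum, was at -0.06, TEX2 at 0.40, LRRC37A3 at 1.08 (adjusted p = 0.154) and GNA13, a G protein alpha subunit, at -0.81 (adjusted p = 0.0681). Within 1000 kb, 2 of 26 tested genes were enriched, a count near the share of 10.5% over all genes. These were FTSJ3, a factor of ribosome biogenesis, at 1.62 and DDX42, another DEAD-box helicase, at 1.05, and both are named after their values were seen.

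**Figure D3:**
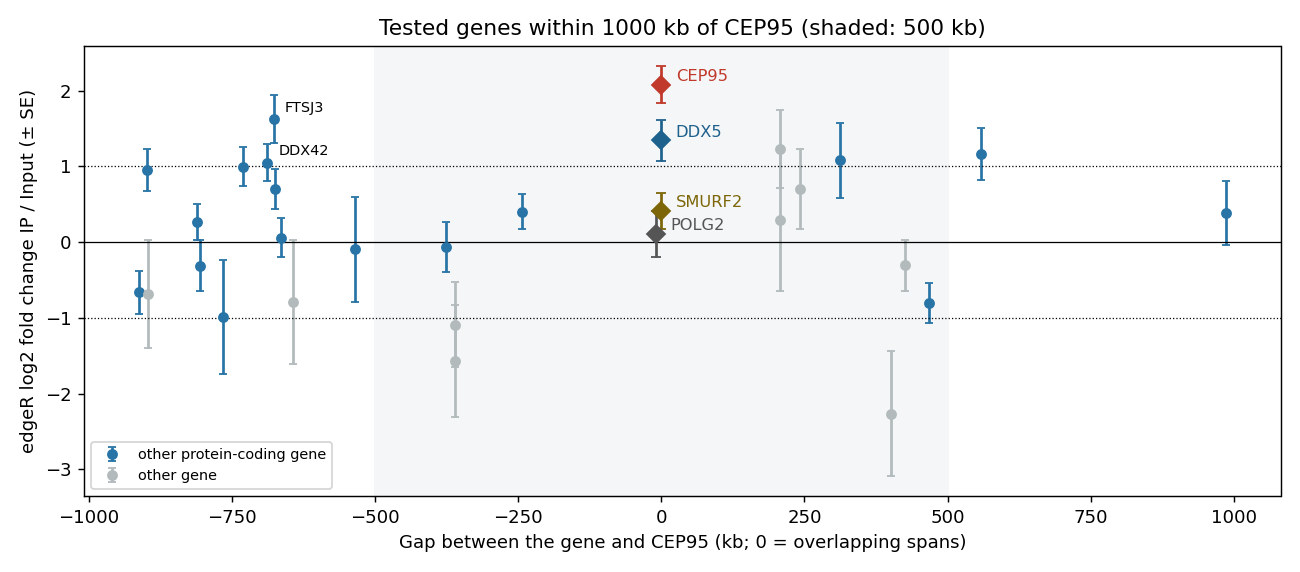
edgeR log2 fold change ± SE of the tested genes within 1000 kb of CEP95 against the gap between each gene and CEP95 in kb (diamonds, the 4 genes; circles, others; dotted lines, log2 fold changes of 1 and -1; shading, 500 kb). Within the shaded range CEP95 and DDX5 were called, and none of the 11 other tested genes was.

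The head-to-head position of CEP95 and DDX5 was set beside that of other genes. Among tested genes, 1060 pairs were on opposite strands with divergent start sites at most 1000 bases apart. In 15 of these pairs (1.42%) both genes were enriched, and CEP95 with DDX5 was one of them. In 215 pairs only one gene was enriched, and 11.5% of the genes in pairs were. Ranked by the smaller of the paired fold changes, CEP95 with DDX5 was number 5 of the 15. The 4 ahead of it, named after their values were seen, were LARP7 with ZGRF1, KIF20A with BRD8, KATNIP with GTF3C1, and UBN1 with GLYR1. The median absolute difference between paired genes was 0.94 on the log2 scale, and 41.5% of the pairs were closer than CEP95 and DDX5. Across pairs, the fold changes of the plus- and minus-strand genes were related at Spearman rho = -0.04, given as a description since genes share libraries.

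**Figure D4:**
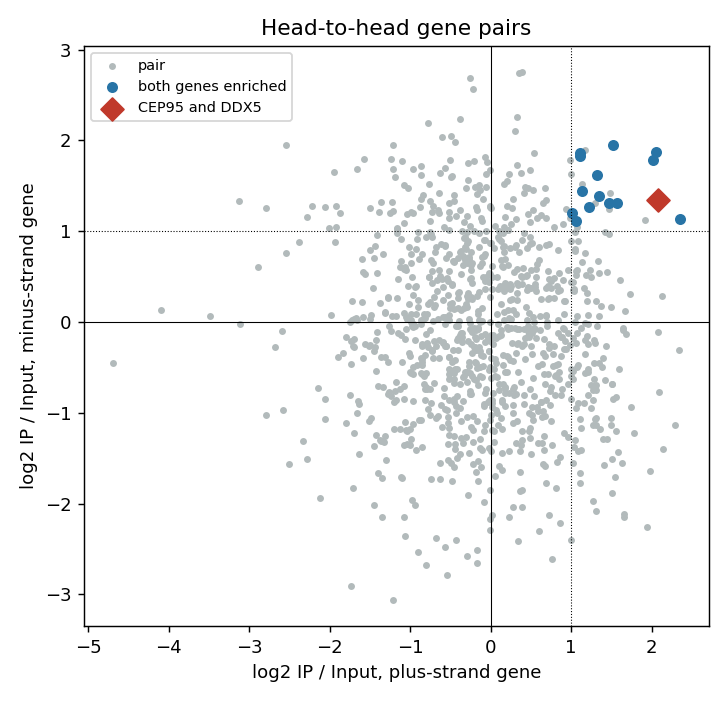
edgeR log2 IP to Input of the plus-strand gene against that of the minus-strand gene in 1060 head-to-head pairs (grey), with the 15 pairs in which both genes were enriched in blue or, for CEP95 and DDX5, as a red diamond (dotted lines, log2 fold changes of 1). CEP95 and DDX5 are at 2.08 and 1.34, in the sparsely filled upper right of the plot.

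The coding sequences were compared for the trinucleotide GAA, alone and in tandem. CEP95 had 104 GAA in 2463 coding bases, or 42.2 per kb, at the 94.8th percentile of the 12534 coding sequences of tested genes. DDX5 had 31.5 per kb (77.3rd percentile), SMURF2 29.9 (72.9th) and POLG2 33.0 (81.2nd). The median was 22.8 per kb over all of these genes and 31.1 over the enriched ones. In frame, 64 of the 821 codons of CEP95 (7.80%) were GAA, a glutamate codon, against 3.42% in DDX5, 3.88% in SMURF2 and 3.92% in POLG2. The hexamer GAAGAA occurred 5 times in CEP95, 4 times in DDX5, 6 times in SMURF2 and 2 times in POLG2. No member held GAAGAAGAA, which 12.5% of the coding genes and 36.9% of the enriched ones did.

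To show these coding features, the 90 coding bases with the most GAA are given for each gene, 5′ to 3′ on its own strand, with every GAA in capitals. They come from GENCODE v44 on GRCh38, and coding positions count from 1 at the start codon.
CEP95 coding: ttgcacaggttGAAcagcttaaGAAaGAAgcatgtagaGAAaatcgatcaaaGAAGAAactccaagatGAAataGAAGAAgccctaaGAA
DDX5 coding: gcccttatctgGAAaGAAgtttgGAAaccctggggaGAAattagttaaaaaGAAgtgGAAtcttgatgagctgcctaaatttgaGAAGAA
SMURF2 coding: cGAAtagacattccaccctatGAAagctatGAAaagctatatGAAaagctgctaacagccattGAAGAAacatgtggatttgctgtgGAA
POLG2 coding: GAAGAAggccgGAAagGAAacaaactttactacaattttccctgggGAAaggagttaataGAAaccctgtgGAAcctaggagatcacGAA
The CEP95 stretch covers coding positions 1772 to 1861, from exon 15 to exon 16 (chr17:64532938-64533135, the intron between them included), and holds 10 GAA with 2 of the 5 GAAGAA of the gene, at positions 1824 and 1846. The DDX5 stretch is in exon 2 (chr17:64504717-64504806) and holds 8 GAA. That of SMURF2 is in exon 19, at the end of the coding sequence (chr17:64545851-64545940), and holds 7. That of POLG2 is in exon 4 (chr17:64490835-64490924) and holds 8. Thus the densest stretches of the 4 genes differed by at most 3 GAA.

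Across coding genes, the fold change was related to coding length (Spearman rho = 0.59), to GAAGAA occurrences (0.51) and to GAA per kb (0.25). Given length, the value was 0.28 for GAAGAA occurrences and 0.27 for GAA per kb. These are descriptions over genes that share libraries. CEP95 and SMURF2 were in the same decile of coding length (2064 to 2595 bases), where the median log2 fold change was 0.45 and 14.9% of 1254 genes were enriched. CEP95 was at the 98.7th percentile of fold change in that decile and SMURF2 at the 47.8th. DDX5, shorter than both, was at the 93.6th percentile of its own decile (median 0.28) and POLG2 at the 54.5th of its own (median 0.04). By GAA per kb, CEP95 was in the highest decile, where the median was 0.67 and 28.6% were enriched, against -0.19 and 2.23% in the lowest. For GAA per kb, CEP95 was at the 94.8th percentile of fold change within that decile, DDX5 at the 89.2nd, SMURF2 at the 54.5th and POLG2 at the 40.9th, each in its own decile. The part of length or GAA content in the recovery of these RNAs was not tested.

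**Figure D5:**
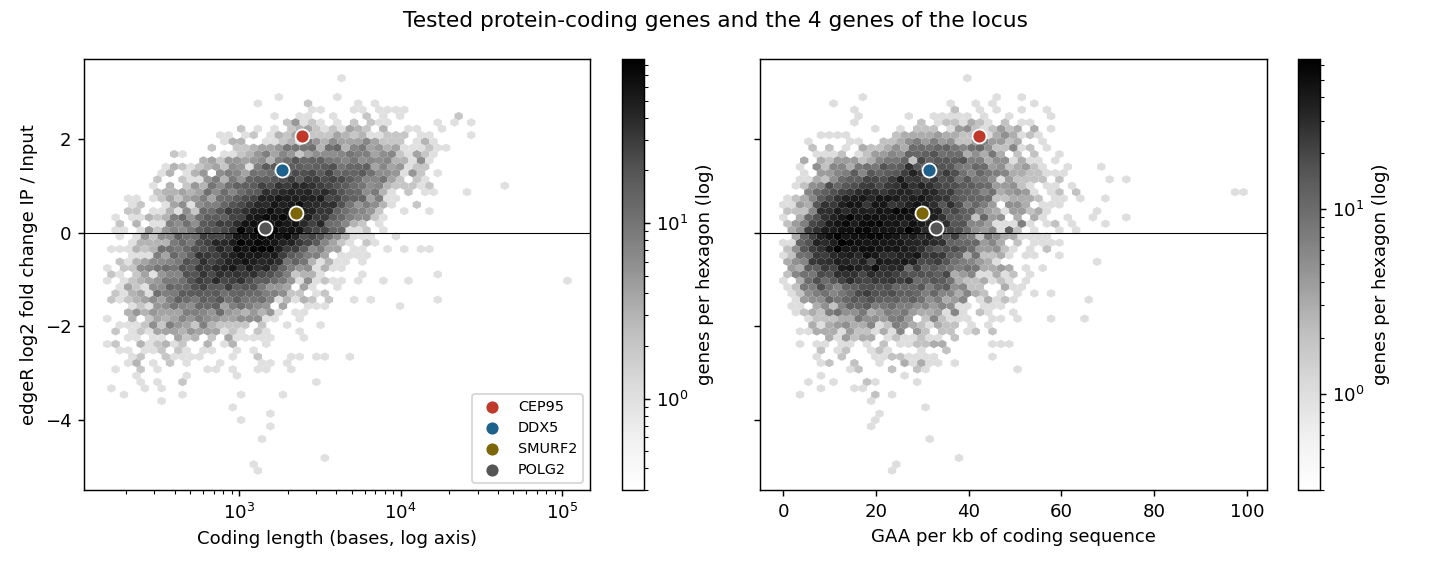
edgeR log2 IP to Input of 12534 tested protein-coding genes against coding length in bases (left, log axis) and GAA per kb of coding sequence (right), with darker grey for more genes and coloured points for the 4 genes of the locus. CEP95, at 2.08, is near the upper edge at its length and has the highest GAA content of the 4 (42.2 per kb), and SMURF2 and POLG2 are in the middle of the genes of their length.

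Genes with the role of each member were taken from lists, and their counts are read beside the background of 10.5% enriched and 8.30% depleted. Of 36 genes with a CEP symbol, which mostly name centrosomal proteins, 16 were enriched (15 of 35 without CEP95) and 1 (CEP20) was depleted. The median log2 fold change of the 36 was 1.06 against 0.01 over all tested genes. Leaving out 1 library gave from 13 (without Input replicate 2) to 24 (without Input replicate 1) enriched. CEP95 ranked 5th of them, after CEP162 (2.88), CEP290 (2.69), CEP152 (2.67) and CEP112 (2.37). Among DDX5, its paralogue DDX17 and the Microprocessor genes DROSHA and DGCR8, which cut primary microRNAs, 3 of 4 were enriched, and 2 under upper-quartile scaling, without IP replicate 1 or without Input replicate 2. Of the 3 genes other than DDX5, 2 were enriched, DROSHA at 1.98 and DGCR8 at 1.06. DDX17 was at 0.56 with an edgeR adjusted p of 0.154.

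SMURF2 had the smallest fold change of the 9 genes of the NEDD4 family of HECT ubiquitin ligases. Of these, 1 was enriched (NEDD4, 1.87) and none was depleted, with a median of 0.72 against 0.01 over all tested genes. All 9 had positive ratios in both replicates. The share of such genes over all tested genes, or over genes of like length, was not computed, so this is not read as a family trait. The closest relative, SMURF1, was at 0.42 and SMURF2 at 0.41. Of 16 genes of mitochondrial DNA replication, 2 were enriched and 2 depleted, with a median of 0.06. POLG, the catalytic partner of POLG2, was enriched at 1.46, as was PRIMPOL at 1.31, while the single-strand binding protein gene SSBP1 (-1.41) and the mitochondrial transcription factor gene TFB2M (-1.05) were depleted.

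Of 10597 genes with a mean of at least 5 CPM, the 5 most like CEP95 in pattern over the 4 libraries were taken. They were PCNT, TAOK3, TSPYL2, IFIH1 and EPRS1. None was on chromosome 17, but 5 genes are too few to bear on whether recovery is shared along the locus. Likeness was the Euclidean distance between log2 CPM centred on each gene's mean, and was 0.129 for PCNT, which encodes the centrosomal scaffold pericentrin, to 0.156 for EPRS1, a glutamyl-prolyl-tRNA synthetase. The log2 fold changes of the 5 genes, between 2.01 and 2.11, follow from choosing them by likeness in the same libraries. The distance from CEP95 was 0.759 to DDX5, 1.68 to SMURF2 and 2.08 to POLG2.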

How the data were processed

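Raw read counts per gene, deposited by the authors without normalization, were used for all 4 libraries. The methods and the submitters' processing notes name Trimmomatic for trimming, STAR for alignment (hg19) and featureCounts for counting over Ensembl genes. The annotation release, the strand setting and the handling of reads with several alignments are not given in the sources used here. Reads carry no molecular identifiers, so duplicates count as separate reads. All 37 mitochondrially encoded genes were listed at 0.

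IP was compared with Input by edgeR 4.0.16 (R 4.3.3; quasi-likelihood, robust, TMM, filterByExpr) on the whole table, with group as the only term and Benjamini-Hochberg adjustment over the 14645 genes tested. A call needed a log2 fold change beyond 1 in either direction at an adjusted p below 0.05. The SE given with an edgeR log2 fold change is its absolute value divided by the square root of the F statistic of its test. It is not the spread of the replicate ratios. The study used DESeq2, which with limma voom was an alternative. On data simulated for this comparison without pairing by replicate number, 200 genes were changed, and the script was checked on them. The outcome is not given here and does not show how well these libraries resolve a change. Log2 ratios were taken after adding 0.5 to TMM-scaled CPM, pairing IP and Input by the replicate number of the labels. Deviations of same-numbered libraries from their group means correlated at r = 0.645 across genes. The labels give IP and Input of a number as one RIP replicate, so the numbers pair the libraries. The study's methods mention no block, and the fit with one was an alternative. TMM factors were 0.758 and 0.868 for IP and 1.19 and 1.28 for Input, and the biological coefficient of variation was 0.261.

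Coordinates, exons and coding sequences (at least 150 bases, canonical transcript) came from GENCODE v44 on GRCh38, another build than that of the counts, joined by gene identifier. Upstream sequences came from RefSeq on GRCh38.p14, which held all 4 genes. Named genes were the 4 members, tested genes within 500 kb of CEP95, genes of the lists, and the 5 genes most like CEP95. The members and lists were chosen with earlier results of these data known.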

Additional observations from a re-analysis of the deposited data

How the results depend on the processing

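The alternatives were DESeq2 1.42.0, limma voom 3.58.1, the replicate block, scaling by RLE factors, by upper quartiles or by library size only, no count filter or a minimum of 1 CPM, each library left out, other pseudocounts, windows and start-site distances, and the longest coding transcript. Of 232 values recomputed, 202 kept their direction and call or stayed within the limits set for a count or a value. This tally is not a rate of robustness. The limits were wide, since 1080 enriched genes with upper-quartile scaling counted as kept against 1542 in the main fit. The longest coding transcript was the canonical one in all 4 genes, so their GAA content could not change. With library size only, the log2 fold change of DDX5 was 0.74 and not called, those of SMURF2 and POLG2 turned to -0.19 and -0.48, and the mean replicate log2 ratios of CEP95, DDX5, SMURF2 and POLG2 were 1.47, 0.74, -0.19 and -0.51. That scaling called 380 genes enriched and 3257 depleted, and among the lists 7 CEP genes enriched and 3 depleted, 0 genes of mitochondrial DNA replication enriched, and 1 gene of the Microprocessor list enriched. With upper-quartile scaling, POLG2 was at -0.0550 and the mean replicate ratios of DDX5, SMURF2 and POLG2 were 1.17, 0.24 and -0.0840. Relative to the median of all genes, CEP95 stayed between 2.06 and 2.08 over the 4 scalings. A scaling shifts all genes by nearly the same amount, so this value could hardly change and is not a check of the enrichment. The pairing by replicate number gave, with the replicate block, 1960 genes enriched and 1957 depleted, and 2 enriched within 500 kb of CEP95, against 0 without it. CEP95 stayed at 2.08 (adjusted p = 2.88e-07), DDX5 at 1.34 (adjusted p = 1.56e-05). A window of 1000 kb also held 2 enriched genes. RLE, upper-quartile scaling and the filter of 1 CPM called 2 CEP genes depleted, and DESeq2 called 1 gene of mitochondrial DNA replication depleted. Leaving out 1 library moved CEP95 from 1.82 to 2.24, DDX5 from 1.19 to 1.43, SMURF2 from 0.32 to 0.47 and POLG2 from -0.21 to 0.45. It left from 13 to 24 CEP genes enriched and from 1 to 2 depleted, from 2 to 3 genes of the Microprocessor list enriched and, of mitochondrial DNA replication, from 1 to 3 enriched and from 1 to 2 depleted. For mitochondrial DNA replication, 1 gene was enriched without IP replicate 1, and 3 were enriched and 1 depleted without IP replicate 2 or without Input replicate 1. The second depleted CEP gene came without Input replicate 1. In these fits the lone library of a group was assumed to vary like the other group. The causes were not tested. Without pairing, the 2 libraries per group allow no smaller exact p than 0.333, and the counts of POLG2, 243 to 420, are the fewest of the 4 genes.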
